A study of Homo sapiens with 6 samples.

Results

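The genes described here were splicing factors and RNA-binding motif (RBM) proteins, taken by symbol from RNA sequencing of T47D cells kept in normoxia or hypoxia. A symbol was taken when it began with the name of an SR protein (SRSF), an hnRNP protein, a protein of the small nuclear ribonucleoproteins (SNRP, SF3A, SF3B), U2AF, a PRPF protein, an RBM protein, or a member of the RBFOX, ESRP, MBNL, CELF and NOVA families, held no hyphen, and averaged 10 counts or more over the 6 libraries. Of the 27754 genes in the count tables, 133 had such a symbol without a hyphen and 115 of these passed the mean count. The 18 symbols under the mean included 8 listed at 0 in all 6 libraries. Just inside the minimum were RBM44 with a mean of 10.17 counts, NOVA2 with 24 and SNRPN with 25.67, and just outside it were HNRNPH2 with 8.83, CELF6 with 8.33 and CELF4 with 5.83. HNRNPH2 shares 92.2% of its exon bases with the entry RPL36A-HNRNPH2, and SNRPN shares 64.9% with SNHG14 and SNURF. The counts of HNRNPH2 and SNRPN are therefore uncertain. NOVA2 and CELF3 passed only through their counts in hypoxia, and RBM44 only through its counts in normoxia. All 115 members passed the filter of the test across genes.

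T47D, an established human cell line from a luminal breast cancer, was grown as an adherent culture. The 3 normoxia libraries came from cells in 20% O2 and the 3 hypoxia libraries from cells held for 48 h in a chamber that the labels set at 0.5% O2. The study's text names another oxygen setting for hypoxia. All 6 libraries came from the same line in the same medium with serum, and no allele was changed. The study describes its replicates as independent experiments, without saying how the cultures behind each library were kept apart, and p-values measure the spread between these samples.

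Pre-mRNA splicing is carried out by the spliceosome, a set of small nuclear ribonucleoproteins in which an RNA is held by a ring of Sm proteins and joined by proteins that recognise the splice sites and drive the remodelling steps. SR proteins usually bind exons and help the spliceosome to choose them, and hnRNP proteins coat the nascent transcript and often block its sites. On top of this machinery, regulators that are abundant in some tissues and scarce in others (ESRP proteins in epithelia, RBFOX, NOVA and CELF proteins in neurons, MBNL, RBM20 and RBM24 proteins in muscle) decide which alternative exons are kept.

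The libraries held between 32989104 and 89883409 counts, with hypoxia replicate 3 the deepest, so that 3 counts were worth from 0.0334 to 0.0909 CPM, the count divided by the library total in units of 1000000. CPM values were also scaled by edgeR's TMM factors, and TPM, the same measure corrected for gene length, was used wherever levels of different genes were set side by side. All 9 luminal epithelial markers had at least 10 counts in every library, and their summed level was between 14000 and 18100 CPM in normoxia and between 10200 and 13500 CPM in hypoxia. Of these 9 markers, 4 fell (the estrogen receptor ESR1, PGR, GATA3 and FOXA1), none rose and 5 did not pass, and with the replicate number as a block 6 fell and 1, CDH1, rose. ESR1 was 271 ± 26.4 CPM in normoxia and 74.6 ± 0.598 CPM in hypoxia, and CDH1, the epithelial cadherin, was 700.1 ± 81.9 and 800.4 ± 76.6 CPM (SD, n = 3). Of 11 markers of other cell types, 2 (COL1A1 and CD68) had at least 10 counts in every library, and the summed level was between 85.3 and 96.4 CPM in normoxia and between 84.1 and 106 CPM in hypoxia. COL1A1 made up most of that sum, at means of 88.7 and 84.3 CPM. The macrophage marker CD68 rose from 1.31 ± 0.335 to 6.8 ± 1.03 CPM (SD, n = 3, edgeR adjusted p = 1.63e-04). The mural cell marker PDGFRB had 0, 0 and 3 counts in normoxia and 14, 18 and 28 counts in hypoxia, and the leukocyte marker PTPRC had 0 counts in each normoxia library and 4, 1 and 5 counts in hypoxia. The part of these markers in the results below was not tested. In bulk RNA, fewer cells that express a gene and less of its RNA per cell cannot be told apart.

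Most of the general splicing machinery was lower in hypoxia, whereas the tissue-type regulators moved in both directions, as all tested genes did. Their range was wider than that of the core genes, with NOVA2, CELF3, CELF5 and RBM24 at its ends. Of the 115 members, 16 rose and 58 fell in edgeR's quasi-likelihood test with Benjamini-Hochberg adjustment over 15657 genes at 0.05, and 41 did not pass. Over all tested genes, 30.4% were called higher and 29.1% were called lower. The median log2-fold change (hypoxia minus normoxia) of the members was -0.25, and that of all tested genes was 0.03. Libraries of the 2 conditions did not overlap for 19 members that were higher in hypoxia and 60 that were lower, against 34.9% and 32.4% of all genes. With a change of at least 1 on the log2 scale as a further condition, CELF5, NOVA2 and CELF3 were called higher and RBM24, SRSF2 and HNRNPAB lower, against 15.2% and 4.91% of all genes. NOVA2 and CELF3 entered the list through their hypoxia counts and so had to differ. Both are included in the counts of higher members here, except where left out by name, and are no support for them. Without them and RBM44, 14 of 112 members rose and 58 fell, and 1 was called higher with a change of at least 1. With the replicate number as a block, a fit used below where it changes the call of a gene, 36.6% of all genes were called higher and 35.2% lower, and 19 members rose and 69 fell.

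By role, 2 of 37 core spliceosome genes rose and 20 fell, with a median log2-fold change of -0.34 and a range from -0.91 to 0.69. None of the 11 SR protein genes rose and 8 fell (median -0.59), and 1 of 20 hnRNP genes rose and 13 fell (median -0.33). Of the 16 tissue-type regulators, 7 rose, 5 fell and 4 did not pass, with a median of 0.12 and a range from -2.14 to 4.14. Without NOVA2 and CELF3, 5 of 14 rose and 5 fell, the range was -2.14 to 2.55, and the median turned to -0.03. Over all tested genes, 30.4% rose and 29.1% fell, the background for each count by role given here and below. The remaining 31 RBM proteins held 6 that rose and 12 that fell (median -0.17). The middle 50% of the log2-fold changes spanned 0.49 among core genes and 1.11 among tissue-type regulators (0.79 without NOVA2 and CELF3), against 0.99 among all tested genes. The groups also differed in level, since the median normoxia level was 134 TPM for core genes, 228 TPM for SR proteins, 271 TPM for hnRNP proteins and 22.3 TPM for tissue-type regulators, beside 16.5 TPM for all tested genes. Under upper-quartile scaling the median of all genes shifted by 0.16 on the log2 scale, and the members then divided into 21 that rose and 43 that fell.

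**Figure D1:**
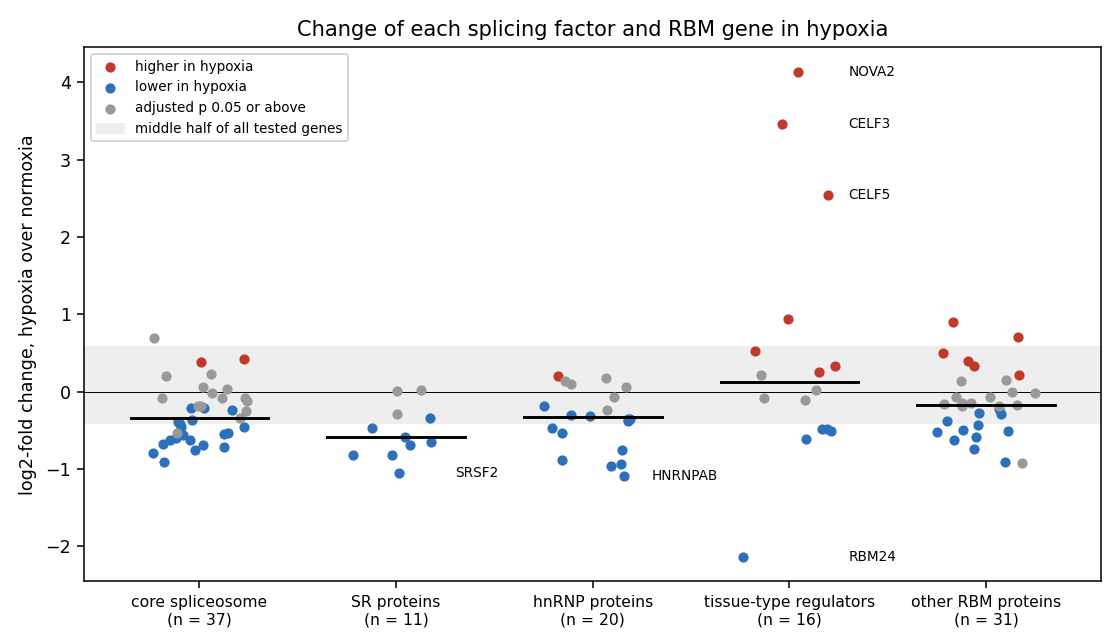
Log2-fold change of each of the 115 members (hypoxia minus normoxia, edgeR), 1 point per gene, grouped by role, with the median of each group as a line; colours mark genes called higher, called lower or not called, and the shaded band is the middle 50% of all tested genes. Core, SR and hnRNP genes lie mostly below 0, between -1.09 and 0.69, while the tissue-type regulators run from -2.14 to 4.14. NOVA2 and CELF3 are among the latter only through their hypoxia counts and so had to be high. Without them the tissue-type regulators run from -2.14 to 2.55.

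The lower level of core, SR and hnRNP genes was also visible in the sum of each of these groups. Core spliceosome genes summed to 6240 ± 206.5 TPM in normoxia and 5186 ± 151.4 TPM in hypoxia (SD, n = 3). SR proteins summed to 2245 ± 41.4 and 1756 ± 49.1 TPM, and hnRNP proteins to 6337 ± 118 and 4847 ± 188 TPM. In each of these groups all hypoxia libraries lay below all normoxia libraries. The tissue-type regulators summed to 616 ± 7.22 TPM in normoxia and 583.5 ± 12.6 TPM in hypoxia, also without overlap. RBM24 alone went from 70.3 to 17.4 TPM, a larger fall than that of the sum. Of these 16 genes 7 rose and 5 fell, so the sum does not describe the group as a whole. The other RBM proteins summed to 1829 ± 72.6 TPM in normoxia and 1829 ± 119 TPM in hypoxia, with libraries of the 2 conditions overlapping. With 3 libraries against 3, an exact permutation test of such a sum cannot reach 0.05, so these sums are given as a description.

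**Figure D2:**
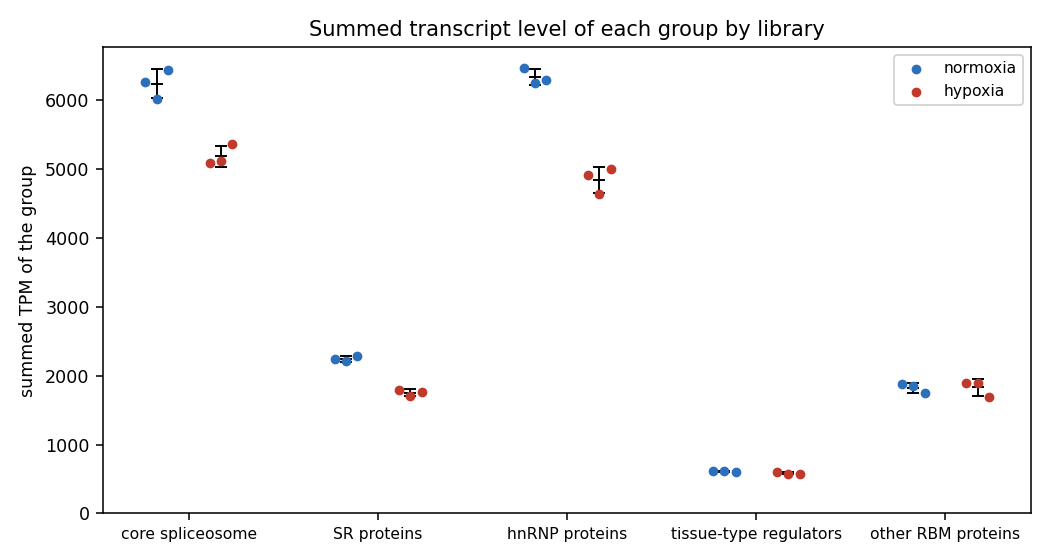
Summed TPM of each group in each of the 6 libraries (points), with the mean and SD of 3 libraries per condition (black lines). The sums of core, SR and hnRNP genes are lower in every hypoxia library, from 6240 to 5186 TPM for the core genes, and those of the other RBM proteins overlap.

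RBM24, an RNA-binding protein best known for controlling splicing in heart and skeletal muscle, had the deepest fall of any member. It was at 78.8, 74.3 and 82.4 CPM in normoxia replicates 1, 2 and 3 and at 18.7, 16.4 and 18.4 CPM in hypoxia replicates 1, 2 and 3. The libraries of each condition lay close together and far from those of the other. The gene, on chromosome 6 from 17281809 to 17294099 (GRCh37, plus strand), was 4.4-fold lower in hypoxia (log2-fold change -2.14, SE 0.09, edgeR adjusted p = 1.59e-05). Its nearest relative among the members, RBM38, which also binds and stabilises transcripts, was at 27.7, 26.5 and 28.9 CPM in normoxia and 34.3, 29.2 and 33.3 CPM in hypoxia. RBM38 did not pass (log2-fold change 0.22, 95% interval 0.01 to 0.43, edgeR adjusted p = 0.0696) and passed with the replicate number as a block (adjusted p = 0.0194). It also passed without hypoxia replicate 2 (log2-fold change 0.28, adjusted p = 0.0456) and under upper-quartile scaling (0.38, adjusted p = 0.00681).

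The pair of epithelial splicing regulators moved apart. ESRP1, which promotes epithelial forms of many transcripts, was at 232, 226 and 245 CPM in normoxia and at 275, 257 and 308 CPM in hypoxia. All hypoxia libraries were above all normoxia libraries, yet the rise was small (log2-fold change 0.26, SE 0.09, edgeR adjusted p = 0.033). The call was lost without normoxia replicate 1 (log2-fold change 0.24, adjusted p = 0.115), without normoxia replicate 2 (0.21, adjusted p = 0.113), without hypoxia replicate 1 (0.27, adjusted p = 0.08) and without hypoxia replicate 3 (0.18, adjusted p = 0.0595). ESRP2, its paralog with overlapping targets, was at 260, 238 and 292 CPM in normoxia and 171, 150.3 and 195 CPM in hypoxia. ESRP2 fell without overlap of the conditions (log2-fold change -0.61, SE 0.12, edgeR adjusted p = 0.00282). In normoxia the paralogs had similar levels, with means of 150.2 TPM for ESRP1 and 159.5 TPM for ESRP2, and in hypoxia they were at 195 and 113 TPM. The difference between the paralogs was not tested.

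Among regulators known from neurons, CELF5 rose, and NOVA2 and CELF3, nearly silent in normoxia, are given as a description without a test. NOVA2, a KH-domain protein that controls neuronal exons, had 2, 2 and 1 counts in normoxia and 32, 40 and 67 counts in hypoxia. Scaled to the library totals, the ratio of summed counts was 19.1, with a 95% counting interval from 7.98 to 59.7 that covers counting error only. CELF3, a CUG-binding protein of the nervous system, had 7, 7 and 0 counts in normoxia and 67, 74 and 69 counts in hypoxia, a ratio of 10.3 with a counting interval from 6 to 19.2. Both stayed low even in hypoxia, at means of 0.304 TPM for NOVA2 and 0.676 TPM for CELF3. CELF5, of the same family, was better measured, with 1.77, 1.88 and 1.16 CPM in normoxia and 10.3, 11.4 and 6.75 CPM in hypoxia. CELF5 rose 5.84-fold (log2-fold change 2.55, SE 0.27, edgeR adjusted p = 2.19e-04), with every hypoxia library above every normoxia library. NOVA1, the paralog of NOVA2, was at 1.9, 3.14 and 1.03 CPM in normoxia and 1.85, 2.11 and 1.74 CPM in hypoxia and did not pass (log2-fold change -0.11, 95% interval -0.94 to 0.73, edgeR adjusted p = 0.812).

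The remaining tissue-type regulators showed smaller changes than RBM24 and CELF5. RBFOX2, which binds beside alternative exons in epithelial, muscle and neural cells, was at 59.5, 62.3 and 57.2 CPM in normoxia and 83.7, 92.1 and 82 CPM in hypoxia. RBFOX2 rose (log2-fold change 0.53, SE 0.08, edgeR adjusted p = 0.00107), as did RBM11, a regulator described in brain and testis (0.93, SE 0.20, adjusted p = 0.00453). In the muscleblind family, MBNL1 was at 114, 115.5 and 116 CPM in normoxia and 81.8, 82.6 and 79.3 CPM in hypoxia and fell (log2-fold change -0.51, SE 0.07, edgeR adjusted p = 5.32e-04), while MBNL2 rose (0.33, SE 0.08, adjusted p = 0.00658) and MBNL3 did not pass (-0.09, 95% interval -0.35 to 0.18, adjusted p = 0.536). RBM20, known for the splicing of titin in heart muscle, fell (-0.48, SE 0.10, edgeR adjusted p = 0.00504). RBM47, an epithelial RNA-binding protein, was at 95.5, 102 and 77.4 CPM in normoxia and 72.2, 68.5 and 57.3 CPM in hypoxia and fell (-0.48, SE 0.13, edgeR adjusted p = 0.0139). The call for RBM47 was lost under upper-quartile scaling (-0.32, adjusted p = 0.0893). CELF1, the broadly expressed member of its family, had means of 217.5 CPM in normoxia and 222 CPM in hypoxia (log2-fold change 0.03, 95% interval -0.16 to 0.22, edgeR adjusted p = 0.786).

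**Figure D3:**
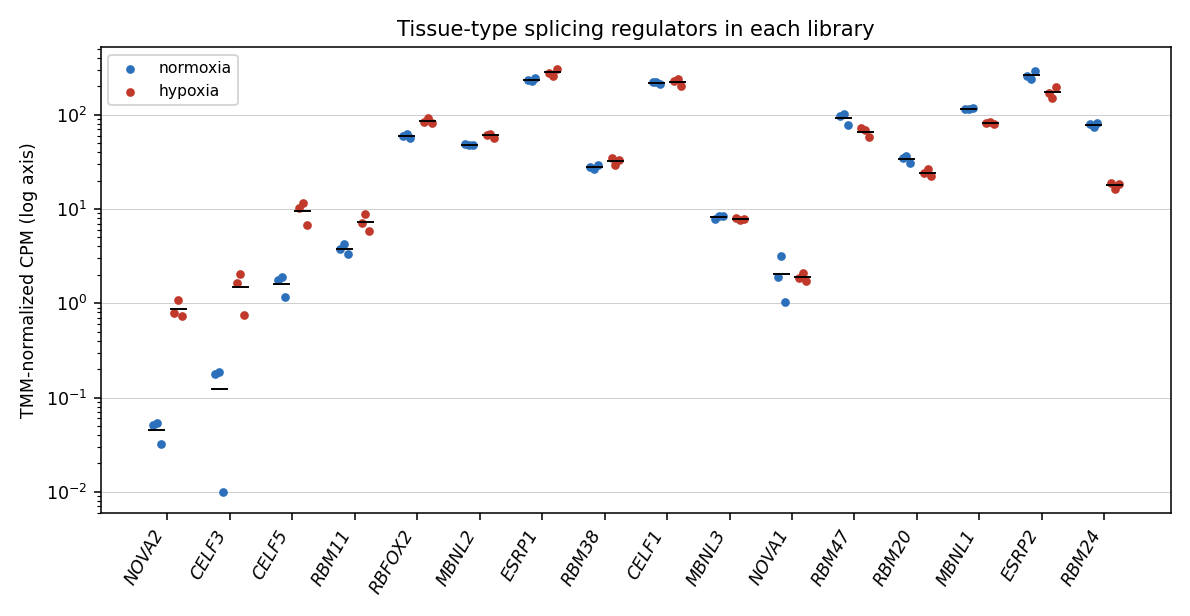
CPM of the 16 tissue-type regulators in each library on a log scale, with normoxia and hypoxia libraries as separate colours and the mean of each condition as a black line; the normoxia library with 0 counts of CELF3 is drawn at 0.01 CPM. RBM24 drops from between 74.3 and 82.4 CPM to between 16.4 and 18.7 CPM, NOVA2, CELF3 and CELF5 lie higher in each hypoxia library, and the conditions overlap for CELF1, MBNL3 and NOVA1. NOVA2 and CELF3 passed the mean count only through their hypoxia counts and so had to differ.

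In the core spliceosome, the Sm ring had the largest share of genes that fell. Of its 8 measured genes, 6 fell, none rose, and the median log2-fold change was -0.55. SNRPF was at 66.6, 63.2 and 67.9 CPM in normoxia and 40.2, 37 and 37.4 CPM in hypoxia (log2-fold change -0.79, SE 0.08, edgeR adjusted p = 1.76e-04). SNRPD1 (-0.72), SNRPD3 (-0.68) and SNRPD2 (-0.42) fell as well, with SE between 0.07 and 0.08, and no conditions overlapped for these genes. SNRPB, the most abundant core transcript at 761 TPM in normoxia, was at 333, 306 and 444 CPM in normoxia and 212, 198 and 334 CPM in hypoxia. Replicate 3 was the highest library in both conditions, the ranges overlapped, and SNRPB did not pass (log2-fold change -0.54, SE 0.22, edgeR adjusted p = 0.0623). With the replicate number as a block its adjusted p was 9.69e-05, without hypoxia replicate 3 it was 0.00359 and without normoxia replicate 2 it was 0.0457. SNRPB also passed in edgeR's exact test (adjusted p = 0.0296), in DESeq2 (0.0228) and with all genes of at least 1 count tested (0.0397).

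Of the 13 proteins of the U1 and U2 particles, which recognise the ends of the intron, 7 fell and none rose. SF3B5, a small subunit of the SF3B complex at the branch site, was at 57.5, 49.4 and 83 CPM in normoxia and 31.5, 29.2 and 51.7 CPM in hypoxia. The ranges overlapped, because hypoxia replicate 3 was above normoxia replicate 2, and the fall of 0.75 on the log2 scale (SE 0.26, edgeR adjusted p = 0.0356) was lost without normoxia replicate 1 (adjusted p = 0.0521), normoxia replicate 3 (0.0908), hypoxia replicate 1 (0.112) or hypoxia replicate 2 (0.106) and under upper-quartile scaling (0.0594). SNRPB2, a U2 protein, fell more evenly, from 138, 138 and 131 CPM to 85, 89.5 and 79.95 CPM (log2-fold change -0.68, SE 0.07, edgeR adjusted p = 2.65e-04). SNRPC of the U1 particle (-0.63), SF3B4 (-0.62) and SF3B6 (-0.54), both of the SF3B complex, fell with SE between 0.08 and 0.09. Not every SF3 subunit passed. SF3B2, the most abundant of the 13 by TPM, was at 508, 489 and 559 CPM in normoxia and 442, 458 and 469.7 CPM in hypoxia. All its hypoxia libraries were below all normoxia libraries. SF3B2 did not pass (log2-fold change -0.18, 95% interval -0.37 to -0.0018, edgeR adjusted p = 0.0753) and passed with the replicate block (0.0164). SF3B1, the branch-site subunit often mutated in leukemias, and SF3A1 were chosen after their values were seen and did not pass, with log2-fold changes of 0.04 (edgeR adjusted p = 0.694) and -0.02 (0.856).

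U2AF binds the end of the intron before the exon and recruits the U2 particle. Its large subunit U2AF2 was at 242, 212 and 291 CPM in normoxia and 188, 176 and 227 CPM in hypoxia. The ranges overlapped and U2AF2 did not pass (log2-fold change -0.34, SE 0.14, edgeR adjusted p = 0.0678), whereas it passed with the replicate number as a block (adjusted p = 6.03e-04), without normoxia replicate 2 (0.0252), without hypoxia replicate 3 (0.0196), in edgeR's exact test (0.0463) and in DESeq2 (0.0453). U2AF1L4, a paralog of the small subunit, rose from 10.9, 11.5 and 11.1 CPM to 15.8, 15.8 and 13.4 CPM (log2-fold change 0.43, SE 0.11, edgeR adjusted p = 0.0112). That call was lost without normoxia replicate 1 (adjusted p = 0.0529) or hypoxia replicate 1 (0.0538), which left 1 core gene that rose. The small subunit itself, U2AF1, was listed at 0 in every library, and 100% of its exon bases were also assigned to the near-identical copy U2AF1L5. U2AF1L5 was at 0.481, 0.645 and 0.614 CPM in normoxia and 1.04, 1.18 and 0.656 CPM in hypoxia and did not pass (log2-fold change 0.69, 95% interval -0.02 to 1.41, edgeR adjusted p = 0.0851), but passed without hypoxia replicate 3 (0.93, adjusted p = 0.0216) and under upper-quartile scaling (0.85, adjusted p = 0.0486). The values of these copies cannot be told apart in these counts and are uncertain.

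Among the 13 PRPF proteins, which take part in assembling and activating the spliceosome, 7 fell and 1 rose. PRPF31, which holds together the particle of U4, U5 and U6, was at 72.5, 64.4 and 84.2 CPM in normoxia and 35.7, 37.1 and 44.6 CPM in hypoxia. The libraries did not overlap, and it had the largest fall of the core genes (log2-fold change -0.91, SE 0.13, edgeR adjusted p = 7.17e-04). PRPF19, the ubiquitin ligase of the activated spliceosome, fell too (-0.46, SE 0.11, edgeR adjusted p = 0.00867). PRPF8, the scaffold at the catalytic centre, was at 562, 522 and 532 CPM in normoxia and 461.5, 478.5 and 458 CPM in hypoxia. Its fall was small (-0.21, SE 0.07, edgeR adjusted p = 0.0319) and was lost without normoxia replicate 1 (adjusted p = 0.13), hypoxia replicate 1 (0.111) or hypoxia replicate 2 (0.0641). The call for PRPF8 was also lost under upper-quartile scaling (adjusted p = 0.57), and with all genes of at least 1 count tested (0.0513). PRPF6, a bridging protein of the same particle, did not pass (-0.12, 95% interval -0.30 to 0.06, edgeR adjusted p = 0.203). PRPF39, an alternative splicing factor of the U1 particle, rose from 56.9, 57.1 and 55.6 CPM to 76, 81.1 and 63.8 CPM (0.38, SE 0.10, edgeR adjusted p = 0.0121).

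The SR protein genes had a lower median change than the core genes, which was not tested. SRSF2, an exonic enhancer-binding protein on chromosome 17 from 74730197 to 74733493 (GRCh37, minus strand), was at 482, 428 and 536 CPM in normoxia and 234, 209 and 254 CPM in hypoxia. Every hypoxia library was far below every normoxia library, and SRSF2 was 2.08-fold lower (log2-fold change -1.05, SE 0.11, edgeR adjusted p = 2.19e-04). SRSF7 and SRSF3, paralogs that also take part in export and 3′ end processing of transcripts, fell alike (-0.81 each, SE 0.13 and 0.09, edgeR adjusted p = 0.00137 and 2.26e-04). SRSF3 was at 350.4, 351 and 373.5 CPM in normoxia and 204, 185 and 222 CPM in hypoxia. The most abundant SR transcript by length-corrected level, SRSF9 at 502 TPM in normoxia, was at 223, 221 and 275 CPM in normoxia and 192, 174 and 225 CPM in hypoxia. Its ranges overlapped and it did not pass (-0.28, SE 0.12, edgeR adjusted p = 0.08), but it passed with the replicate number as a block (adjusted p = 0.00153) and without hypoxia replicate 3 (0.0187). SRSF9 shares 42.6% of its exon bases with a gene on the other strand, and the strand setting of the counting is not given in the sources used here. SRSF5 was at 199, 203.5 and 189 CPM in normoxia and 204, 207 and 189.6 CPM in hypoxia, so that the conditions overlapped (0.02, 95% interval -0.14 to 0.19, edgeR adjusted p = 0.797).

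The kinases that phosphorylate SR proteins were measured beside them. Of the 8 kinase genes listed, 5 rose and 1 fell, with a median log2-fold change of 0.56, against 30.4% and 29.1% of all tested genes. With the replicate number as a block 5 rose and 3 fell. SRPK2 (-0.16, adjusted p = 0.0285) and DYRK1A (-0.14, 0.04), named because the block changed their call, passed as lower in that edgeR fit only. CLK1, a nuclear dual-specificity kinase that releases SR proteins from speckles, was at 22.6, 20 and 19.2 CPM in normoxia and 75.3, 74.2 and 54 CPM in hypoxia. CLK1 was 3.29-fold higher without overlap (log2-fold change 1.72, SE 0.14, edgeR adjusted p = 9.78e-05). CLK4 (1.15, SE 0.12), CLK3 (0.82, SE 0.11) and CLK2 (0.29, SE 0.08) rose as well, so that all 4 CLK genes were higher in hypoxia. SRPK1, the main cytoplasmic SR protein kinase, was chosen after its values were seen and went the other way, from 161, 150 and 155 CPM to 76.5, 76.1 and 85.2 CPM (-0.97, SE 0.08, edgeR adjusted p = 8.66e-05).

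**Figure D4:**
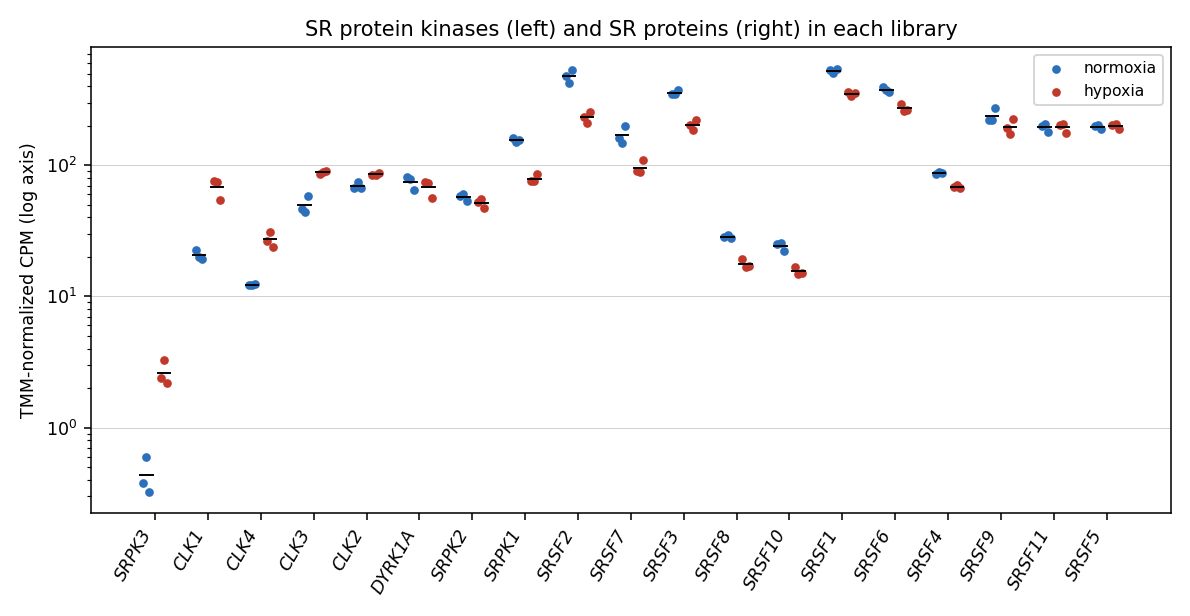
TMM-normalized CPM on a log scale for the 8 genes of the SR protein kinases (left) and the 11 SR protein genes (right), with 1 point per library, normoxia and hypoxia in separate colours and the mean of each condition as a black line. CLK1 lies between 19.2 and 22.6 CPM in normoxia and between 54 and 75.3 CPM in hypoxia, while SRSF2 lies between 428 and 536 CPM in normoxia and between 209 and 254 CPM in hypoxia.

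The hnRNP genes held the most abundant transcript of all members, and 13 of the 20 fell. HNRNPAB, an A/B-type hnRNP on chromosome 5 from 177631508 to 177638184 (GRCh37, plus strand), was at 379, 330 and 433 CPM in normoxia and 166, 138 and 233 CPM in hypoxia (log2-fold change -1.09, SE 0.19, edgeR adjusted p = 0.00196). HNRNPA2B1, which binds nascent transcripts and was the most abundant member at 1257 TPM in normoxia, was at 1933, 1812 and 1975 CPM in normoxia and 944, 879 and 1104 CPM in hypoxia. It was 1.96-fold lower (log2-fold change -0.97, SE 0.10, edgeR adjusted p = 2.33e-04). HNRNPM, which acts against ESRP proteins on shared exons, fell from 334, 290.5 and 393 CPM to 169, 144 and 218 CPM (-0.94, SE 0.17, edgeR adjusted p = 0.00211). For these 3 genes no hypoxia library reached the lowest normoxia library. HNRNPK, a poly(C)-binding protein, fell by less (-0.38, SE 0.07, edgeR adjusted p = 0.00239). HNRNPH3 was the 1 hnRNP gene that rose, from 209, 207 and 216 CPM to 247, 236.5 and 242 CPM (0.20, SE 0.07, edgeR adjusted p = 0.0298). The call for HNRNPH3 was lost without normoxia replicate 1 (adjusted p = 0.135), normoxia replicate 2 (0.117), hypoxia replicate 1 (0.119) or hypoxia replicate 2 (0.0669), and with all genes of at least 1 count tested (0.0682). HNRNPA1, named after its values were seen because it shares 63.2% of its exon bases with a pseudogene, did not pass (-0.24, edgeR adjusted p = 0.181) and passed with the replicate block (0.0155), and its counts are uncertain.

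**Figure D5:**
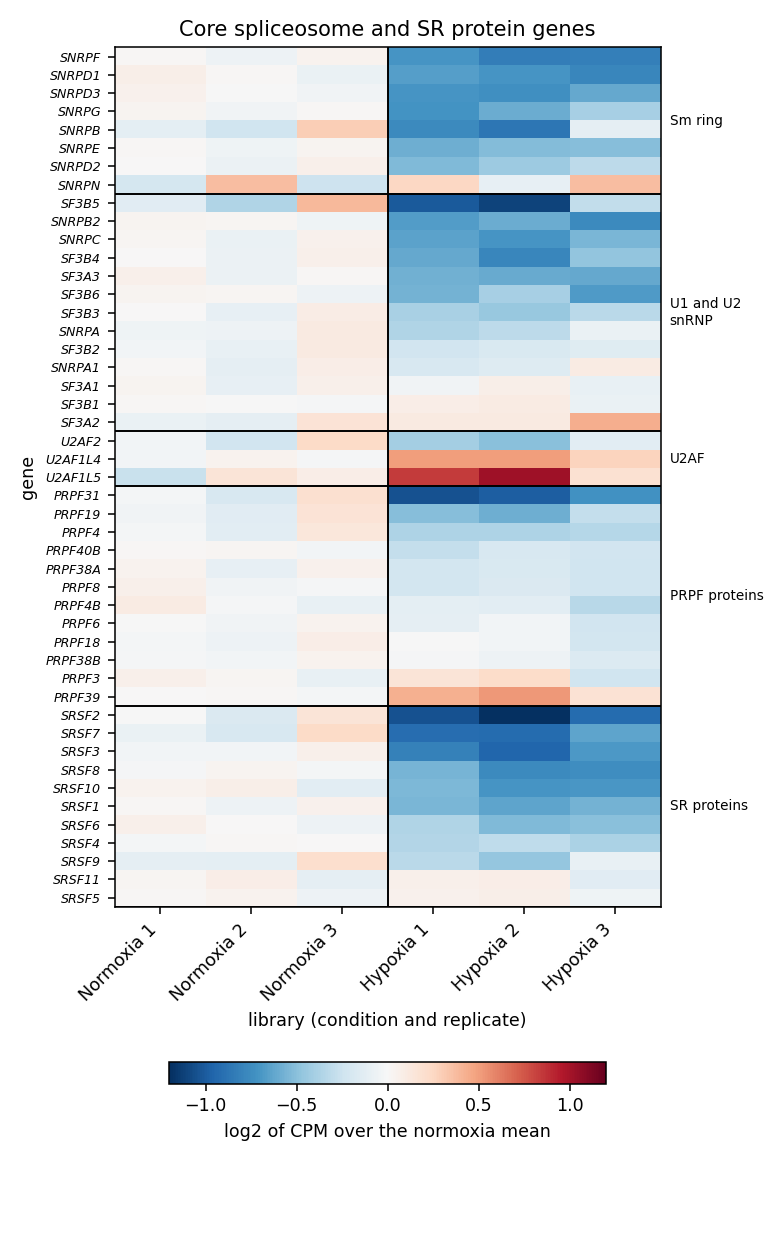
Level of the core spliceosome genes, all but 1 of which are drawn, and of the SR protein genes in each of the 6 libraries, as the log2 of its CPM over the mean of the normoxia libraries, with blue below and red above that mean. Hypoxia columns are blue for most genes, including SRSF2 (-1.05 between conditions) and PRPF31 (-0.91), and the exceptions include PRPF39 (0.38) and SRSF5 (0.02).

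Among RBM proteins found in spliceosomal complexes, 2 of 11 rose and 4 fell (18.2% and 36.4%, against 30.4% and 29.1% of all tested genes). RBM39, a U2AF-related cofactor, was at 306, 321 and 282 CPM in normoxia and 420.1, 422 and 352 CPM in hypoxia and rose (log2-fold change 0.39, SE 0.10, edgeR adjusted p = 0.00888). RBM5, a regulator of apoptosis genes, rose (0.33, SE 0.10, edgeR adjusted p = 0.0197), and its call was lost without hypoxia replicate 1 (adjusted p = 0.0682) or hypoxia replicate 2 (0.0596). Its relative RBM10 fell, from 112, 96.7 and 118 CPM to 87.95, 79.3 and 98.8 CPM with overlapping ranges (-0.29, SE 0.11, edgeR adjusted p = 0.0482). The call for RBM10 was lost without normoxia replicate 1 (adjusted p = 0.118), normoxia replicate 3 (0.11), hypoxia replicate 1 (0.121) or hypoxia replicate 2 (0.151), and under upper-quartile scaling (0.251). RBM42, which binds hnRNP K, fell from 63.4, 58.9 and 91.5 CPM to 38.1, 34.7 and 55 CPM (-0.74, SE 0.22, edgeR adjusted p = 0.019), lost without hypoxia replicate 1 (0.067) or hypoxia replicate 2 (0.0619). RBM23, a relative of RBM39, fell without overlap (-0.51, SE 0.08, edgeR adjusted p = 0.00132). RBM22, of the activated spliceosome, and RBM25, a U1-associated factor, did not pass (-0.16 and -0.19, edgeR adjusted p = 0.0599 and 0.0683) and passed with the replicate block (0.0198 and 0.0301), and RBM22 also in DESeq2 (0.0267).

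Of the other 20 RBM genes, 4 rose and 8 fell (20% and 40%, against 30.4% and 29.1% of all tested genes). RBM7, which guides the nuclear exosome to non-coding transcripts, was at 23.1, 24.5 and 21.3 CPM in normoxia and 40.4, 39.6 and 33 CPM in hypoxia. RBM7 rose (log2-fold change 0.71, SE 0.11, edgeR adjusted p = 0.001), as did RBM43 (0.91, SE 0.21, adjusted p = 0.00633) and RBM18 (0.50, SE 0.10, adjusted p = 0.00362). RBM12 fell most, from 182, 175 and 163.5 CPM to 91.5, 85.95 and 98.7 CPM (-0.91, SE 0.08, edgeR adjusted p = 1.31e-04). RBM28, a nucleolar protein, fell (-0.58, SE 0.10, edgeR adjusted p = 0.00172), and RBM34 fell by less (-0.38, SE 0.09, adjusted p = 0.0093, and 0.109 under upper-quartile scaling). RBM14, a coactivator found in paraspeckles, was at 96.4, 79.7 and 124 CPM in normoxia and 57.9, 55.9 and 81.6 CPM in hypoxia. Its ranges overlapped, and its fall (-0.62, SE 0.20, edgeR adjusted p = 0.0256) was lost without normoxia replicate 3 (0.0598), hypoxia replicate 1 (0.0868) or hypoxia replicate 2 (0.0826) and under upper-quartile scaling (0.0504).

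RBM3, a cold-inducible protein also known to respond to low oxygen, was at 336.5, 299 and 276 CPM in normoxia and 279.9, 294 and 247 CPM in hypoxia. The conditions overlapped and RBM3 did not pass (log2-fold change -0.15, 95% interval -0.39 to 0.08, edgeR adjusted p = 0.23). All 10 genes of a list of hypoxia response genes rose, with log2-fold changes from 1.8 to 5.51, against 30.4% of all tested genes. That list was chosen with earlier results of these data known, so it is no independent check of the hypoxia labels.

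Promoter sequence was read for members with the largest changes, to show whether the letters of a hypoxia response element lie near their start. The letters searched were ACGTG and GCGTG on both strands of the 250 bases before the RefSeq start of each gene (GRCh38.p14), and a match can overlap the palindrome CACGTG. Of the 115 members, 99 had a promoter in the table, and 70.7% of these held a match, against 43.1% of all 27305 promoters. The share was 81.8% of 11 promoters of members that rose, 69.8% of 53 that fell and 68.6% of 35 that did not pass, and CACGTG itself lay in 9.09% of member promoters and 6.49% of all. A match is a description of these letters. The promoters of CELF5 and HNRNPAB held no match, SRSF2 had no entry, and NOVA2 held 3 matches, of which the one nearest to the start is shown. The 3 windows below, at chr6:17281821-17281849 (plus strand), chr1:151716913-151716941 (minus strand) and chr19:45973889-45973917 (minus strand), are centred on that match, in capitals, 231, 126 and 40 bases before the start.
RBM24: gtgaggggctcgGCGTGacccgtgaggag
CELF3: gatagaaagaggGCGTGgctcgtgcctgg
NOVA2: tcccactccggcCACGCtcctccggcccc
RBM24, which fell, and CELF3 and NOVA2, which were higher in hypoxia, thus carried the same letters on 1 strand or the other.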

How the data were processed

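Counts per gene from 3 normoxia and 3 hypoxia libraries of T47D cells, grouped by their labels, were analysed as deposited. The authors prepared stranded mRNA libraries, trimmed adapters with Skewer, aligned reads to GRCh37 (hg19) and counted them per RefSeq gene, without normalization. The submitters' processing notes name FastQC 0.11.5, STAR 2.5.2a and featureCounts 1.5.1. How strand and multiply matching reads were handled in counting is not given in the sources used here.

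Genes were kept by edgeR's filterByExpr (minimum count 10, minimum total count 15), and 15657 were tested with edgeR 4.0.16 (quasi-likelihood, TMM, condition as the only term) in R 4.3.3 with limma 3.58.1. Intervals are the 95% intervals of that fit. TPM used the gene lengths in the deposited tables. Alternatives were DESeq2 1.42.0, edgeR's exact test, other scalings and filters, thinning of hypoxia replicate 3, stricter thresholds, the replicate number as a block, and each library left out. Those chosen after seeing the data left out both libraries numbered 3, members sharing 25% or more of their exon bases, or members under a mean of 10 counts in either condition. Scripts were tested on simulated data. Figures used Python 3.11.15 and matplotlib 3.10.9.

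Deviations from the condition means correlated between same-numbered libraries (0.453, 0.519 and 0.634 over 15657 genes). The study's methods call the conditions paired but name no pairs. The numbers were taken as pairs only in the fit with the replicate block, and the main fit, which gave the calls unless stated, did not use them.

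Members, roles and lists were chosen with earlier results of these data known. Named genes were all tissue-type regulators, members changed by at least 1 on the log2 scale, the 3 largest rises and falls and the 3 highest TPM per role, RBM3 and the CLK genes. ESR1, PGR, GATA3, FOXA1, CDH1, COL1A1, CD68, PDGFRB and PTPRC come from the marker lists. Some results covered by this rule are not reported here.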

Additional observations from a re-analysis of the deposited data

How the results depend on the processing

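Of the 61 named members, 42 kept the same call in every fit and 19 did not. Among the 42, 6 that were not called changed sign in at least 1 fit. Under the replicate block, the members that rose went from 16 to 19 and those that fell from 58 to 69, no call was lost, and apart from SNRPB, SF3B2, U2AF2, SRSF9, RBM22, RBM25 and RBM38, given with their values, it changed the call of no other of these 61. NOVA1 changed sign under the block (0.00113). Members that rose numbered 10 at an adjusted p under 0.01 and 3 with a log2-fold change of at least 1, which left 3 that fell. For core genes that rose, the count was 4 with upper-quartile scaling, 0 at an adjusted p under 0.01, and 5 without both libraries numbered 3, and it ranged from 1 to 3 with each library left out. A log2-fold change of at least 1 left 0 core genes in either direction, and 3 tissue-type regulators that rose and 1 that fell. Those 3 include NOVA2 and CELF3, and without them 1 that rose is left. Upper-quartile scaling gave medians of -0.0898 for members, -0.176 for core genes, -0.427 for SR proteins, -0.173 for hnRNP proteins and 0.282 for tissue-type regulators, and turned MBNL3 (0.0712), NOVA1 (0.0398), PRPF6 (0.0383) and RBM3 (0.00599) positive; its median over all genes also moved, by 0.16. With each library left out, medians ranged from -0.295 to -0.232 for members, -0.44 to -0.257 for core genes, -0.626 to -0.562 for SR proteins, -0.378 to -0.308 for hnRNP proteins and 0.0908 to 0.193 for tissue-type regulators, and values ranged from -0.0261 to 0.0913 for CELF1, -0.419 to 0.339 for NOVA1 and -0.0122 to 0.0574 for SRSF5. Without both libraries numbered 3, chosen after seeing the data, medians were -0.274 for members, -0.563 for SR proteins and -0.298 for hnRNP proteins. Without members that share exon bases, they were -0.284, -0.616 and -0.351. Without members under a mean of 10 counts in either condition, also chosen after seeing the data, the median of tissue-type regulators turned to -0.0289, by the removal of NOVA2 and CELF3. A mean of at least 100 counts gave -0.283 for members and 0.0278 for tissue-type regulators. The hnRNP median was -0.345 with RLE factors and with DESeq2. Where no construction is named, the cause was not tested. NOVA2 and CELF3, with at most 7 counts in a normoxia library, are limited by depth.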

Other observations

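Splicing genes with other symbols were read from 2 lists, both chosen with earlier results of these data known. Of 53 other spliceosome genes, 3 rose and 28 fell in edgeR's quasi-likelihood test (median log2-fold change -0.28), and 5 rose and 37 fell with the replicate block. Over all tested genes, 30.4% rose and 29.1% fell in that test, and 36.6% and 35.2% with the block. The genes named here were chosen after their values were seen. SNRNP25, of the minor spliceosome, was at 53.8, 47.3 and 72.7 CPM in normoxia and 15.4, 14.4 and 24.6 CPM in hypoxia and fell most (-1.66, edgeR adjusted p = 7.66e-04). LSM4 (-0.97), of the ring on U6, and PHF5A (-0.84), an SF3B subunit, fell too, and BUD31 (0.46), SLU7 (0.54) and SYF2 (0.42) rose. Of 26 tested splicing regulators of other families, 7 rose and 11 fell (26.9% and 42.3%), and 9 rose and 13 fell with the replicate block. SFPQ, an RNA-binding protein of paraspeckles, had the largest fall (-0.98), and KHDRBS3 (0.92) and RBMS2 (0.74) had the largest rises. PTBP1, which represses neuronal exons, fell from 422, 381.5 and 452 CPM to 277, 264 and 329 CPM (-0.53, edgeR adjusted p = 0.00376). CIRBP, the cold-inducible relative of RBM3, was at 168.5, 208 and 147 CPM in normoxia and 197, 209 and 188 CPM in hypoxia, with overlap (0.18, edgeR adjusted p = 0.241), and passed with the replicate block (0.0363).

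Below the mean count of the rule, CELF6 had 0, 4 and 1 counts in normoxia and 11, 10 and 24 in hypoxia, a ratio of 6.18 with a 95% counting interval from 2.46 to 19.9. CELF4 had 0, 1 and 0 counts in normoxia and 3, 8 and 23 in hypoxia. RBFOX1 was at 0 counts in all 6 libraries. SRPK3, a muscle SR protein kinase, had 15, 22 and 10 counts in normoxia and 96, 119 and 201 in hypoxia (log2-fold change 2.57, edgeR adjusted p = 3.36e-04).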
